A study of Mus musculus with 12 samples.

Results

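The comparison described here is the interaction of a peptide treatment with cell type. It asked which genes answered calcitonin gene-related peptide (CGRP) differently in neutrophils and in macrophages, and which answered alike. All 12 libraries of the series entered it, 3 for each of 4 groups, and no library was left out. Both cell types came from C57BL/6J mice of 8 to 12 weeks. Neutrophils were enriched with a magnetic negative-selection kit, taken up in RPMI medium and treated without a culture step. Monocytes were isolated with a monocyte kit, cultured for 3 days in DMEM/F12 medium with 10 ng/ml M-CSF, and treated as macrophages. In each cell type 1 group received 1 nM CGRP and the other saline (PBS), in both cases for 4 h. Deposited totals ran from 2002559 counts in CGRP macrophage library 3 to 3631989 counts in saline neutrophil library 2. Levels below are CPM, the counts relative to library size, with scaling factors found over all 12 libraries. Library size was all counts for the cell type markers and their sums, and the counts in genes tested for other levels. A gene given in both ways can therefore differ slightly. Cell type cannot be told apart from isolation kit, medium and days in culture, so a difference between the effects is a difference between these 2 preparations. The labels do not say whether the 3 libraries of a group came from separate mice, so p-values measure the spread between libraries.

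CGRP is a neuropeptide released by sensory nerve endings. It binds a receptor made of the calcitonin receptor-like receptor (*Calcrl*) and its partner RAMP1, which couples to the stimulatory G protein, raises cyclic AMP and activates protein kinase A and the transcription factor CREB. CREB binds the cAMP response element (CRE) and induces early genes such as *Nr4a2*, *Crem* and *Fos*, and cAMP-degrading phosphodiesterases are induced as negative feedback.

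The libraries carried the markers of their labels. The summed level of 12 neutrophil markers, of which *S100a8* was the most abundant, was 160364 to 240452 CPM in the neutrophil libraries and 306 to 449 CPM in the macrophage libraries. The summed level of 12 macrophage markers, led by *Apoe*, was 36429.7 to 51526 CPM in macrophages and 1789 to 2286 CPM in neutrophils. In macrophages this sum was 36429.7 to 41070.9 CPM with saline and 45125.5 to 51526 CPM with CGRP, which did not overlap, although 1 of the 12 genes passed the test. The neutrophil marker sum in macrophages was 306 to 397 CPM with saline and 422 to 449 CPM with CGRP, so these groups did not overlap. As a share of the sum in saline neutrophils this was 0.174% with saline and 0.217% with CGRP. The part of carried-over neutrophil RNA in the macrophage effects was not tested. Neutrophil libraries also held erythroid transcripts, with 7 markers summing to 5994 to 7632 CPM, and eosinophil, basophil and mast cell transcripts, with 7 markers summing to 911 to 1159 CPM. These sums overlapped between saline and CGRP. The 7 monocyte markers summed to 2662 to 4056 CPM in the neutrophil libraries, more than the 1018 to 1152 CPM in the macrophage libraries. The part of such other cells in the neutrophil effects, rises as well as falls, was not tested. In such bulk libraries fewer cells of a type and less RNA per cell cannot be told apart.

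CGRP changed 1050 of 10694 genes tested in macrophages and 137 in neutrophils at an adjusted p under 0.05 (limma-voom, all 12 libraries). In macrophages 481 genes were higher (4.50% of genes tested) and 569 lower (5.32%). In neutrophils 84 were higher (0.785%) and 53 lower (0.496%). The effect differed between the cell types for 252 genes (2.36%). For 129 of these (1.21%) the log2 fold change was higher in macrophages, and for 123 (1.15%) it was lower. The standard errors of the effects were of similar size, with a median of 0.23 on the log2 scale in macrophages and 0.22 in neutrophils. The difference had a median standard error of 0.33, so small differences could not be resolved. With library totals in place of the scaling by trimmed means (TMM), the split of the differing genes was 88 above and 154 below 0, and the split in neutrophils was 97 higher and 33 lower. In macrophages the split was then 377 higher and 612 lower. Single libraries moved the counts. Without saline macrophage library 1, 149 genes differed and 682 were called in macrophages, and without CGRP macrophage library 2 the macrophage count was 689. The neutrophil count was 73, 71 and 86 without saline neutrophil libraries 1, 2 and 3, and 72 without CGRP neutrophil library 2.

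Of the 252 genes, 232 had the larger effect in macrophages. They fell into classes by which effects passed the threshold, and "only" also required the larger estimate in that cell type. The largest was macrophage only, with 211 genes, of which 105 rose and 106 fell. A further 17 genes changed in both cell types in the same direction but more in macrophages. Neutrophil only held 7 genes, 1 gene changed in both but more in neutrophils, and 3 changed in opposite directions. For the other 13 the estimates were opposite, and neither effect passed or only the smaller one did. Among all 252, the estimates had opposite signs for 128 (50.8%), against 43.4% of all genes tested. Opposite signs enlarge the difference by which these genes were selected, so the higher share is a description only. The other effect is not shown to be absent, since 34 of the 211 macrophage-only genes had an unadjusted p under 0.05 in neutrophils, against 986 of all 10694 genes.

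Genes changed in both cell types numbered 62, which was 45.3% of the neutrophil calls and 5.90% of the macrophage calls. Of these, 43 rose in both, 16 fell in both and 3 were opposite. Of the 84 genes higher in neutrophils, 90.5% also had a higher estimate in macrophages, and of the 53 lower ones 69.8% had a lower estimate. Among all genes tested the signs matched for 56.6%. The effects in the 2 cell types share no library. For 24 genes the effects were alike, which here means that both passed, the difference did not, and its 95% confidence interval lay within 1 on the log2 scale. Another 17 moved in the same direction with an interval too wide to say. For 773 genes called in macrophages and 68 called in neutrophils the difference was not resolved.

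**Figure D1:**
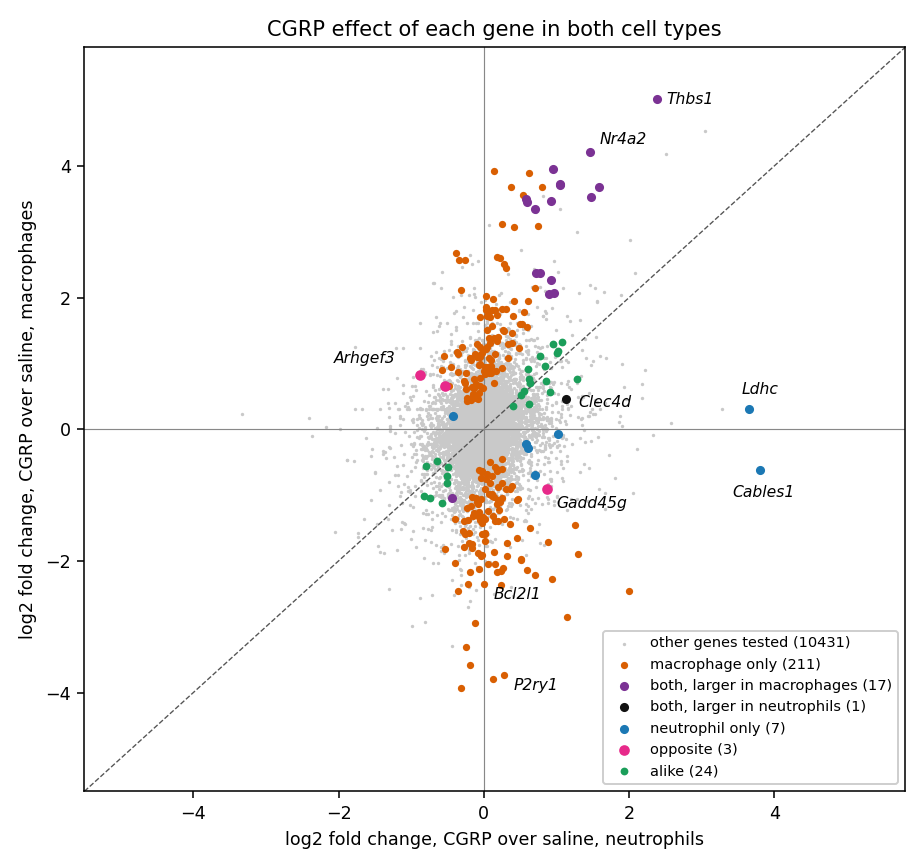
Log2 fold change of CGRP over saline in neutrophils (horizontal) and macrophages (vertical) for 10694 genes, one point each, with colours for the response classes and the number of genes in each in the key. The dashed line marks equal effects, the 211 macrophage-only genes spread along the vertical axis, and the 24 alike genes lie near the dashed line.

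The letters of the CRE were looked up in the 250 bases before the starts of genes, to see whether the classes differed in this sequence. RefSeq promoters (GRCm38.p6) were found for 8215 of the genes tested. The full palindrome TGACGTCA was present for 3.16% of them, and the short site TGACG, searched on both strands and contained in the full site, for 31.5%. Macrophage-only risers held the full site in 2 of 78 genes (2.56%) and the short site in 24 (30.8%). Macrophage-only fallers held them in 6 of 79 (7.59%) and 29 (36.7%). Genes called higher in both cell types held them in 2 of 32 (6.25%) and 10 (31.2%), and the 62 genes called higher in neutrophils with a promoter in 3 and 20. In the smaller class that rose in both but more in macrophages, 5 of 10 genes held the short site and 0 the full site. A match is not a bound site, and a window without one says only that these letters are absent from it. Of the named genes whose promoters were read, *Btg2* was the one with a full site. Its window is shown with windows of 3 further genes, chosen after their values were seen for having several short sites and different classes. Capitals mark the full or short sites, and all run 5′ to 3′ on the strand of the gene.
Btg2 (macrophage only; chr1:134079294-134079341, minus strand, full site 166 bases before the start): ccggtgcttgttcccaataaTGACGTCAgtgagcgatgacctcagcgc
Nr4a2 (both, larger in macrophages; chr2:57124095-57124218, minus strand): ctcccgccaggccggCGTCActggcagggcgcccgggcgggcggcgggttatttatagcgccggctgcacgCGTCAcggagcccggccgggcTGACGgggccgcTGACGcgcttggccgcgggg
Fos (alike; chr12:85473746-85473843, plus strand): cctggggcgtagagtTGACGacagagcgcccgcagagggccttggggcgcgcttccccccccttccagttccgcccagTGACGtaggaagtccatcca
Ldhc (neutrophil only; chr7:46861187-46861235, plus strand): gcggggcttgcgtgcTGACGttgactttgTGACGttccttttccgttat
The *Nr4a2* window holds 4 short sites between 200 and 111 bases before the start, and the windows of *Fos* and *Ldhc* hold 2 each. Starts here are those of the RefSeq promoters. The *Ldhc* window runs past the start of the gene in GENCODE M21 (46861203), so part of it lies inside the gene by that annotation. A second RefSeq promoter of *Ldhc* (chr7:46861237-46861536) held 0 short sites in its 250 bases.

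Genes that rose in both cell types but more in macrophages included secreted mediators and cAMP feedback genes. Positions of genes are given in GRCm38 from the GENCODE M21 annotation. *Thbs1* (chr2:118111876-118127133) encodes thrombospondin-1, a secreted matrix glycoprotein that binds integrins and CD36. In neutrophils it stood at 113, 104 and 118 CPM with saline and 679, 623 and 455 CPM with CGRP. In macrophages it stood at 42.5, 38.4 and 70.8 CPM with saline and 1340.4, 1763 and 1626 CPM with CGRP. Macrophages started below neutrophils and ended above them. The change on the log2 scale was 2.38 ± 0.16 (SE, adjusted p = 3.1e-09) in neutrophils and 5.02 ± 0.18 (SE, adjusted p = 4.6e-15) in macrophages, and the difference was 2.64 ± 0.24 (SE, adjusted p = 4.8e-07). *Il1b*, the cytokine interleukin-1β, stood at 85.1, 95.2 and 98 CPM with saline and 193, 217 and 164 CPM with CGRP in neutrophils. In macrophages it stood at 3.44, 4.2 and 5.39 CPM with saline and 62.1, 56.9 and 50.3 CPM with CGRP. The CGRP macrophages stayed under the saline neutrophils although the rise was larger (3.71 ± 0.29 against 1.04 ± 0.12, difference adjusted p = 1.3e-05).

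*Pde4b* (chr4:102087543-102607259) encodes a phosphodiesterase that degrades cAMP. Its levels were 52.8, 48.8 and 56.9 CPM with saline and 73.2, 80.7 and 85.1 CPM with CGRP in neutrophils. In macrophages they were 12.3, 11.7 and 12.6 CPM with saline and 139, 133 and 132 CPM with CGRP. The neutrophil effect was 0.59 ± 0.12 (SE, adjusted p = 0.012), and the difference was 2.86 ± 0.21 (SE, adjusted p = 2.0e-08). *Nr4a2* (chr2:57106830-57124003), an orphan nuclear receptor and early CREB target, was at 8.85, 8.59 and 8.29 CPM with saline and 21.8, 26.1 and 23.7 CPM with CGRP in neutrophils. In macrophages it was at 1.15, 2.1 and 3.96 CPM with saline and 41.1, 43.2 and 37.7 CPM with CGRP. The effects were 1.46 ± 0.23 and 4.21 ± 0.35, with a difference of 2.75 ± 0.42 (SE, adjusted p = 3.7e-04). *Cd14*, the co-receptor for lipopolysaccharide, was at 169.8, 164 and 177 CPM with saline and 329, 266 and 281 CPM with CGRP in neutrophils. It was at 341, 329 and 315 CPM with saline and 1599, 1649 and 1892 CPM with CGRP in macrophages, where the saline level was already the higher of the 2 cell types. Its difference was 1.60 ± 0.15 (SE, adjusted p = 5.7e-07). *Slc16a3*, the lactate exporter MCT4, rose by 0.90 ± 0.12 in neutrophils and 2.05 ± 0.16 in macrophages (difference adjusted p = 0.0011).

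The other members named by the rule were low in saline macrophages. *F5* (coagulation factor V) was at 0.29, 1.5 and 2.16 CPM with saline and 12.5, 12.6 and 13.1 CPM with CGRP in macrophages. In neutrophils it was at 122, 134 and 109 CPM with saline and 182, 193 and 169.7 CPM with CGRP. *Rnf125*, a ubiquitin ligase, was at 1.15, 0 and 0 CPM with saline and 4.07, 4.8 and 6.54 CPM with CGRP in macrophages and rose by 0.96 ± 0.18 in neutrophils. *Gpr171*, a G protein-coupled receptor, was at 0, 0.599 and 0.72 CPM with saline and 6.89, 4.43 and 6.54 CPM with CGRP in macrophages and rose by 1.05 ± 0.25 in neutrophils. Where the saline level is about 1 CPM, a few counts set the fold change, and the differences of 2.92 ± 0.51, 3.00 ± 0.66 and 2.67 ± 0.66 carry wide errors. The difference missed the threshold on leaving out single libraries for *Rnf125* (without macrophage saline 2 or 3, macrophage CGRP 3, highest adjusted p = 0.15) and *Gpr171* (without neutrophil saline 1 or 2, neutrophil CGRP 1 or 3, macrophage saline 1 or 2, macrophage CGRP 1 or 3, highest adjusted p = 0.22). It passed in all 12 such fits for *Thbs1*, *Il1b*, *Pde4b*, *Nr4a2*, *Cd14*, *Slc16a3* and *F5*. The neutrophil effect, which membership also needs, was lost for *Pde4b* (without neutrophil saline 1 or 2, neutrophil CGRP 2 or 3, highest adjusted p = 0.12), *F5* (without neutrophil saline 1 or 3, neutrophil CGRP 1 or 2, highest adjusted p = 0.1) and *Gpr171* (without neutrophil saline 1, 2 or 3, neutrophil CGRP 1 or 2, highest adjusted p = 0.17). That of *Gpr171* was also lost with edgeR (adjusted p = 0.056), DESeq2 (0.058), no filter on low counts (0.093), the replicate block over all 12 libraries (0.074) and counts thinned to the smallest library (0.055). Thinning also ended the neutrophil call of *F5* (adjusted p = 0.053) and the difference of *Gpr171* (adjusted p = 0.104), and quality weights ended the difference of *Rnf125* (adjusted p = 0.051). Other genes of the class, listed after their values were seen, were *B3gnt5*, *Cyth1*, *Cytip*, *Dgat1*, *Dusp5* and *Nt5e*, which rose, and *Ptpn6*, the phosphatase SHP-1, which fell.

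**Figure D2:**
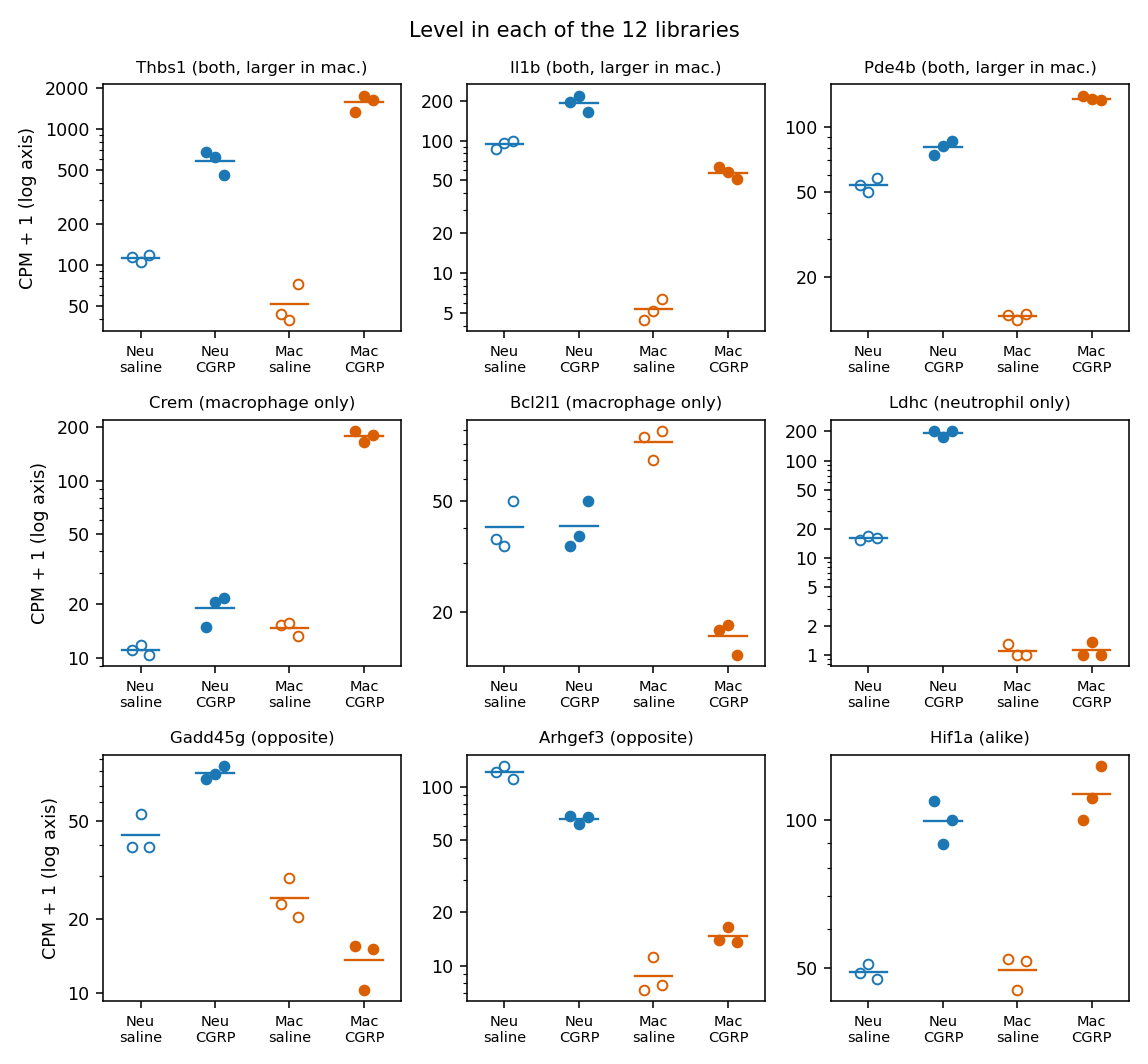
CPM plus 1 (log axis) of 9 genes in each of the 12 libraries, with neutrophils in blue, macrophages in orange, open circles for saline, filled circles for CGRP and lines for the group means. *Thbs1*, *Il1b* and *Pde4b* separated by treatment in both cell types, *Crem* and *Bcl2l1* passed the test in macrophages only, *Ldhc* rose in neutrophils and held 1 count in each macrophage group, and *Gadd45g* and *Arhgef3* moved in opposite directions.

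In macrophages only, the largest rises among genes with at least 10 CPM in macrophages were in transcription regulators, a phosphodiesterase and secreted proteins. *Crem* (chr18:3266048-3337748), the cAMP response element modulator, stood at 14.3, 14.7 and 12.2 CPM with saline and 190.2, 165 and 180.1 CPM with CGRP in macrophages. In neutrophils it stood at 10.1, 10.7 and 9.37 CPM with saline and 14, 19.7 and 20.6 CPM with CGRP. The neutrophil groups did not overlap, as for 17.1% of all genes tested (22.7% in macrophages), but the effect of 0.80 ± 0.23 (SE, adjusted p = 0.099) did not pass, against 3.68 ± 0.17 (SE, adjusted p = 5.5e-13) in macrophages. *Pde3b*, a second cAMP-degrading phosphodiesterase, stood at 5.74, 6.89 and 5.75 CPM with saline and 38.5, 59.8 and 69.4 CPM with CGRP in macrophages and 7.59, 10.7 and 10.8 CPM with saline and 16.6, 17.9 and 13.6 CPM with CGRP in neutrophils. Here too the neutrophil groups were separate while the effect missed the threshold (0.75 ± 0.29, adjusted p = 0.32). *Mxi1*, a partner of MAX that opposes MYC, was at 8.61, 7.49 and 10.8 CPM with saline and 54.2, 53.9 and 54.8 CPM with CGRP in macrophages. Its neutrophil libraries overlapped, at 57.2, 45.1 and 55.8 CPM with saline and 63.7, 53.1 and 62.7 CPM with CGRP. The CGRP macrophages thus reached the level that neutrophils had with saline.

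*Mmp19* (chr10:128790910-128800824), a matrix metalloproteinase, was at 40.5, 51.8 and 43.1 CPM with saline and 237, 297 and 293 CPM with CGRP in macrophages. In neutrophils it was at 13.6, 13.8 and 15.9 CPM with saline and 16.6, 16.1 and 17.5 CPM with CGRP. The difference was 2.39 ± 0.26 (SE, adjusted p = 3.9e-06). *Mmp19* overlaps *Tmem198b* on the opposite strand, and the strand setting of the counting is not given in the sources used here. *Vegfa*, the vascular endothelial growth factor, was at 8.03, 4.79 and 11.5 CPM with saline and 47, 39.2 and 44.3 CPM with CGRP in macrophages. Its neutrophil values overlapped, at 4.43, 5.52 and 8.29 CPM with saline and 4.88, 7.92 and 9.65 CPM with CGRP. *Btg2* (chr1:134075170-134079120), an antiproliferative gene and CREB target, was at 78.9, 77.6 and 94.2 CPM with saline and 212, 213 and 205 CPM with CGRP in macrophages. Saline neutrophils already held more, with 314, 326 and 299 CPM with saline and 339, 358 and 369 CPM with CGRP (difference 1.16 ± 0.15, adjusted p = 4.0e-05). The difference passed in all 12 fits with 1 library left out for *Crem*, *Pde3b*, *Mxi1*, *Mmp19*, *Vegfa* and *Btg2*.

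Among macrophage-only genes with at least 10 CPM in macrophages, the largest falls were in membrane proteins and a protease. *P2ry1* (chr3:61002795-61008982), a receptor for ADP, was at 13.8, 16.5 and 11.9 CPM with saline and 0.94, 0.37 and 2.01 CPM with CGRP in macrophages. *Plau* (chr14:20836660-20843385), the urokinase plasminogen activator, was at 17.5, 16.8 and 27.3 CPM with saline and 1.25, 0.74 and 4.02 CPM with CGRP. *Kcnj2*, an inward-rectifier potassium channel, was at 20.1, 17.1 and 18.3 CPM with saline and 1.57, 2.96 and 0 CPM with CGRP, and *Kcne3*, an accessory subunit of potassium channels, was at 13.8, 13.2 and 7.55 CPM with saline and 0.63, 0 and 5.03 CPM with CGRP. In neutrophils each was under 6 CPM in every library, where the groups overlapped. Their differences were -4.003 ± 0.72, -3.39 ± 0.64, -3.61 ± 0.85 and -3.93 ± 0.95. The call was lost on leaving out single libraries for *Kcnj2* (without neutrophil saline 1 or 3, neutrophil CGRP 1 or 2, macrophage CGRP 3, highest adjusted p = 0.093) and *Kcne3* (without neutrophil saline 1, neutrophil CGRP 1 or 2, macrophage saline 1, macrophage CGRP 2, highest adjusted p = 0.13). For *Kcne3* it was also lost with the edgeR quasi-likelihood test (adjusted p = 0.084), with no filter on low counts (adjusted p = 0.051) and with counts thinned to the smallest library (adjusted p = 0.052), and that of *Kcnj2* with thinned counts (adjusted p = 0.10).

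Falls in transcription factors and a survival gene rested on more counts. *Atf3* (chr1:191170296-191218039), a stress-induced CREB family factor, was at 239, 287 and 225 CPM with saline and 64.9, 55.4 and 44.3 CPM with CGRP in macrophages. In neutrophils it overlapped at 19, 14.1 and 16.6 CPM with saline and 20.8, 15.8 and 20.2 CPM with CGRP, and the difference was -2.35 ± 0.27 (SE, adjusted p = 1.1e-05). *Egr2*, a zinc finger factor, was at 82.6, 78.8 and 82.3 CPM with saline and 16.9, 13.3 and 13.1 CPM with CGRP in macrophages and under 5 CPM in every neutrophil library. Its difference was -2.11 ± 0.49 (SE, adjusted p = 0.019). It was lost on leaving out single libraries for *Egr2* (without neutrophil saline 1, neutrophil CGRP 1 or 2, highest adjusted p = 0.094). *Bcl2l1*, which encodes the anti-apoptotic protein BCL-XL, was at 84.1, 69.5 and 88.5 CPM with saline and 16.3, 17 and 13.1 CPM with CGRP in macrophages. In neutrophils it was at 35.7, 33.5 and 49 CPM with saline and 33.5, 36.7 and 49.1 CPM with CGRP. Its neutrophil estimate was 0.00 ± 0.18 against -2.35 ± 0.21 in macrophages, a difference of -2.35 ± 0.28 (SE, adjusted p = 1.2e-05).

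Neutrophil-only genes were few. *Ldhc* (chr7:46861203-46878142), the lactate dehydrogenase subunit best known from testis, was at 14.2, 15.7 and 15.1 CPM with saline and 199.96, 173 and 202 CPM with CGRP in neutrophils. In macrophages 1 count was found in the 3 saline libraries together and 1 in the 3 CGRP libraries, so no macrophage effect could be measured. The neutrophil effect was 3.66 ± 0.17 (SE, adjusted p = 1.8e-12). The difference of -3.35 ± 0.76 (SE, adjusted p = 0.015) rests on those counts, and it did not pass with edgeR (adjusted p = 0.56) or DESeq2 (adjusted p = 0.42). *Trib1*, a pseudokinase that promotes the degradation of C/EBPα, was at 26.2, 27 and 22.7 CPM with saline and 53.3, 45.8 and 57.9 CPM with CGRP in neutrophils. The macrophage values overlapped, at 29, 20.1 and 33.1 CPM with saline and 27.9, 20.7 and 28.2 CPM with CGRP. The difference was -1.09 ± 0.27 (SE, adjusted p = 0.027). *Rasa2*, a Ras GTPase-activating protein, was at 37.9, 28.9 and 32.4 CPM with saline and 53.3, 50.5 and 58.7 CPM with CGRP in neutrophils. In macrophages it was at 17.2, 17.7 and 21.6 CPM with saline and 12.8, 14.4 and 7.04 CPM with CGRP, separate groups in the other direction whose effect of -0.69 ± 0.25 (SE, adjusted p = 0.084) did not pass.

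*Tes* (testin, a focal adhesion protein) rose by 0.58 ± 0.13 (SE, adjusted p = 0.023) in neutrophils. *Lilr4b*, a receptor of the leukocyte immunoglobulin-like family, rose by 0.61 ± 0.12 (SE, adjusted p = 0.0064). It overlaps its paralog *Lilrb4a*, which holds no count in these tables, so the split of their reads is uncertain. *Cybb*, the catalytic subunit of the phagocyte NADPH oxidase, was the gene that fell, from 1619, 1641 and 1594 to 1287, 1194 and 1149 CPM. In macrophages *Cybb* was at 692, 672 and 720.2 CPM with saline and 688, 865 and 855 CPM with CGRP, and the difference was 0.62 ± 0.14 (SE, adjusted p = 0.015). *Cables1*, outside the naming rule because it stayed under 10 CPM, was at 0, 0.92 and 0.72 CPM with saline and 8.13, 7.04 and 6.58 CPM with CGRP in neutrophils. The difference was lost on leaving out single libraries for *Trib1* (without neutrophil saline 1, 2 or 3, neutrophil CGRP 1 or 3, macrophage saline 1 or 3, macrophage CGRP 2, highest adjusted p = 0.12), *Tes* (without neutrophil saline 1 or 2, neutrophil CGRP 1 or 3, macrophage saline 1 or 2, macrophage CGRP 2 or 3, highest adjusted p = 0.15) and *Cybb* (without neutrophil saline 1 or 2, neutrophil CGRP 3, macrophage saline 1, macrophage CGRP 2 or 3, highest adjusted p = 0.073). That of *Cables1* was lost in 5 of the 12 fits (highest adjusted p = 0.096), and those of *Lilr4b* and *Rasa2* passed in all 12. The neutrophil effect passed in all 12 fits for *Ldhc*, *Trib1*, *Lilr4b* and *Cables1*, and it was lost for *Rasa2* (without neutrophil saline 2 or 3, neutrophil CGRP 1, 2 or 3, highest adjusted p = 0.22), *Tes* (without neutrophil saline 1 or 2, neutrophil CGRP 1 or 3, highest adjusted p = 0.18) and *Cybb* (without neutrophil saline 1, 2 or 3, neutrophil CGRP 2 or 3, highest adjusted p = 0.14). That of *Rasa2* was also lost without a filter on low counts and with thinned counts, and that of *Cybb* with edgeR and with library totals. The differences of *Trib1* and *Tes* were also lost without a filter, and that of *Cybb* with library totals. The gene that rose in both but more in neutrophils was *Clec4d*, a C-type lectin receptor of myeloid cells. It was at 101, 116 and 105 CPM with saline and 256, 219 and 235 CPM with CGRP in neutrophils and 302, 328 and 245 CPM with saline and 440.3, 408 and 353 CPM with CGRP in macrophages. Its difference of -0.67 ± 0.17 (SE, adjusted p = 0.038) passed in 3 of the 12 fits. The macrophage effect of *Clec4d* was lost without macrophage saline 3 or macrophage CGRP 2 (highest adjusted p = 0.056). It was also lost with own fits, where *Clec4d* counted as neutrophil only.

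Opposite changes were seen for 3 genes. *Gadd45g* (chr13:51846678-51848468), a growth-arrest and stress gene, was at 38.3, 52.5 and 38.2 CPM with saline and 73.8, 77.1 and 83.3 CPM with CGRP in neutrophils. In macrophages it was at 22.1, 28.5 and 19.4 CPM with saline and 14.4, 9.24 and 14.1 CPM with CGRP. It rose by 0.86 ± 0.15 (SE, adjusted p = 0.0027) in the former and changed by -0.90 ± 0.24 (SE, adjusted p = 0.017) in the latter. *Arhgef3* (chr14:27114899-27403911), a guanine nucleotide exchange factor, was at 119.5, 129.5 and 109 CPM with saline and 67.3, 60.4 and 66.6 CPM with CGRP in neutrophils. In macrophages it was at 6.31, 10.2 and 6.83 CPM with saline and 12.8, 15.5 and 12.6 CPM with CGRP. Its effects were -0.88 ± 0.12 (SE, adjusted p = 1.9e-04) and 0.83 ± 0.26 (SE, adjusted p = 0.042). *Svil* (supervillin, an actin-binding protein) was at 185, 167 and 177 CPM with saline and 132, 118 and 115 CPM with CGRP in neutrophils and 29.3, 19.5 and 21.9 CPM with saline and 41.1, 34 and 34.7 CPM with CGRP in macrophages, with effects of -0.53 ± 0.12 (SE, adjusted p = 0.019) and 0.65 ± 0.18 (SE, adjusted p = 0.018).

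The differences of *Gadd45g* (-1.77 ± 0.29), *Arhgef3* (1.71 ± 0.29) and *Svil* (1.19 ± 0.21) passed in all 12 fits with 1 library left out. The separate effects of *Gadd45g* and *Arhgef3* in neutrophils did so too, and the others were lost in some fits. In macrophages the call was lost for *Gadd45g* (without macrophage saline 2, macrophage CGRP 2, highest adjusted p = 0.14), *Arhgef3* (without neutrophil saline 1, neutrophil CGRP 1 or 3, macrophage saline 1 or 3, macrophage CGRP 1, 2 or 3, highest adjusted p = 0.21) and *Svil* (without macrophage saline 2, macrophage CGRP 1, highest adjusted p = 0.11), and in neutrophils for *Svil* (without neutrophil saline 1, 2 or 3, neutrophil CGRP 2 or 3, highest adjusted p = 0.14). The macrophage call of *Arhgef3* was also lost with library totals, without a filter on low counts, with own fits and with thinned counts. That of *Svil* was also lost with library totals, without a filter, with quality weights and with own fits, and its neutrophil call with library totals. Only *Gadd45g* of the 3 was still opposite with library totals and with own fits. *Cd200r1*, an inhibitory receptor for CD200, belongs to the 13 genes in no other class and was picked after its values were seen. It was at 13.3, 16 and 16.9 CPM with saline and 28.6, 23.5 and 26.7 CPM with CGRP in neutrophils and 103, 129.8 and 110.4 CPM with saline and 89, 67.6 and 62.9 CPM with CGRP in macrophages. Its macrophage effect passed (-0.64 ± 0.14, adjusted p = 0.0034), its neutrophil effect did not (0.77 ± 0.22, adjusted p = 0.093), and the difference was -1.40 ± 0.26 (SE, adjusted p = 0.0022). With edgeR and with DESeq2 it also counted as opposite.

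Of the 24 alike genes, 16 rose and 8 fell in both cell types. *Hif1a* (chr12:73901375-73947530), the oxygen-sensing transcription factor, was at 47.7, 50.03 and 46.5 CPM with saline and 109, 88.6 and 99.1 CPM with CGRP in neutrophils. In macrophages it was at 51.1, 44.1 and 50.7 CPM with saline and 99, 110.1 and 128 CPM with CGRP. The effects were 1.03 ± 0.14 and 1.19 ± 0.13, and the 95% interval of the difference was -0.23 to 0.56. *Trf* (transferrin, the iron carrier) was at 71.5, 83.8 and 96.2 CPM with saline and 181, 159 and 189 CPM with CGRP in neutrophils. In macrophages it was at 542, 545 and 667 CPM with saline and 1429.7, 1324 and 1655 CPM with CGRP. It thus rose by similar folds (1.08 ± 0.14 and 1.33 ± 0.11, interval -0.12 to 0.62) from saline levels far apart. *Clec4e*, the receptor Mincle, was at 125, 122 and 112 CPM with saline and 268, 220.3 and 212 CPM with CGRP in neutrophils and 33.3, 33 and 23 CPM with saline and 73.3, 67.6 and 78 CPM with CGRP in macrophages (interval -0.09 to 0.75). *Fos*, an early gene of the AP-1 complex, was at 48.7, 50.03 and 60.5 CPM with saline and 141, 137 and 107 CPM with CGRP in neutrophils and 171, 146 and 156 CPM with saline and 281, 281 and 241 CPM with CGRP in macrophages. Its interval of -0.90 to -0.14 lay wholly below 0 while its adjusted p was 0.18, so *Fos* is alike only within the margin. *Tmed5*, a cargo receptor of the secretory pathway, rose by 0.91 ± 0.11 and 0.57 ± 0.11 (interval -0.65 to -0.03, also below 0), and it overlaps *Mtf2* on the opposite strand.

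Among the alike genes that fell was *Ccr2* (chr9:124101950-124113557), the receptor for CCL2. It was at 328, 307 and 316 CPM with saline and 243, 218 and 209 CPM with CGRP in neutrophils and 288, 290.1 and 274 CPM with saline and 153, 162 and 169.6 CPM with CGRP in macrophages. The effects were -0.51 ± 0.10 (SE, adjusted p = 0.0065) and -0.82 ± 0.10 (SE, adjusted p = 5.5e-06), with an interval of -0.61 to -0.02, also below 0. In neutrophils 7 monocyte markers, *Ccr2* and *Cx3cr1* among them, summed to 3346 to 4056 CPM with saline and 2662 to 3497 CPM with CGRP. The most abundant of them was *Ly6c2*, which made up most of the sum and overlapped between the groups, and none was at 0. The CGRP neutrophils lay below all saline neutrophils for 5 of the 7, *Ccr2*, *Cx3cr1*, *F13a1*, *Ly86* and *Klf4*, where 8.91% of all genes tested did so in neutrophils. *Cx3cr1* was at 81.2 to 99.4 CPM with saline and 61.9 to 71.6 CPM with CGRP, and *F13a1* at 297 to 338 and 251 to 276 CPM. *Ly86* was at 159 to 166 and 120.0 to 139.9 CPM, and *Klf4* at 46.9 to 52.6 and 24.4 to 34.3 CPM. Of the 5, *Ccr2* and *Klf4* passed the test in neutrophils, and the part of other cells in the neutrophil falls was not tested. *Clec12a*, an inhibitory lectin receptor, was at 312, 332 and 304 CPM with saline and 209, 198 and 197 CPM with CGRP in neutrophils and 303, 359.9 and 274 CPM with saline and 252, 212 and 207 CPM with CGRP in macrophages. *Ptk2b*, the kinase PYK2, was at 142, 132 and 119 CPM with saline and 72.5, 84.5 and 68.8 CPM with CGRP in neutrophils and 66.3, 59.3 and 77.7 CPM with saline and 38.5, 45.4 and 56.9 CPM with CGRP in macrophages. *Rn7sk*, the 7SK RNA that restrains the elongation factor P-TEFb, was at 207, 221 and 236 CPM with saline and 121, 113 and 145 CPM with CGRP in neutrophils and 68.3, 83 and 94.2 CPM with saline and 28.5, 44.3 and 54.3 CPM with CGRP in macrophages. The libraries were dT-primed, and whether the counts of this non-coding RNA follow its level was not tested. *Asap1*, a GTPase-activating protein for ARF, was the alike gene nearest the margin, with an interval of -0.97 to -0.13 that lay wholly below 0, and *Rapgef6* was the nearest outside it, with a bound of 1.03. The call in macrophages was lost for *Clec12a* (without macrophage CGRP 2, highest adjusted p = 0.052) and *Ptk2b* (without macrophage saline 1 or 3, macrophage CGRP 1 or 2, highest adjusted p = 0.13), and that in neutrophils for *Ccr2* (without neutrophil saline 1, neutrophil CGRP 2 or 3, highest adjusted p = 0.075) and *Asap1* (without neutrophil saline 1 or 2, neutrophil CGRP 1, 2 or 3, highest adjusted p = 0.17). With own fits the macrophage calls of *Clec12a* and *Ptk2b* were also lost, and that of *Ptk2b* with thinned counts. The neutrophil call of *Asap1* was also lost with library totals.

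The saline level of a gene in the 2 cell types went with its class. Risers of the macrophage-only class had a median saline level of 72.4 CPM in neutrophils and 28.2 CPM in macrophages. With CGRP the medians were 70.7 and 69.2 CPM, and for 69 of the 105 the cell types lay nearer together than with saline. Of these 105 genes, 59 were more than 2-fold higher in saline neutrophils and 4 in saline macrophages, against 23.3% and 18.8% of all genes tested. The 106 fallers had median saline levels of 27.6 CPM in neutrophils and 58.4 CPM in macrophages, and with CGRP 28.2 and 21.3 CPM. Of them, 57 were more than 2-fold higher in saline macrophages and 13 in saline neutrophils. The 16 risers of the class that changed in both but more in macrophages had medians of 56.3 CPM in neutrophils and 7.13 CPM in macrophages with saline. Alike genes had median saline levels of 111.6 and 105.5 CPM, and 16 of the 24 (66.7%) were within 2-fold, against 58.0% of all genes tested.

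**Figure D3:**
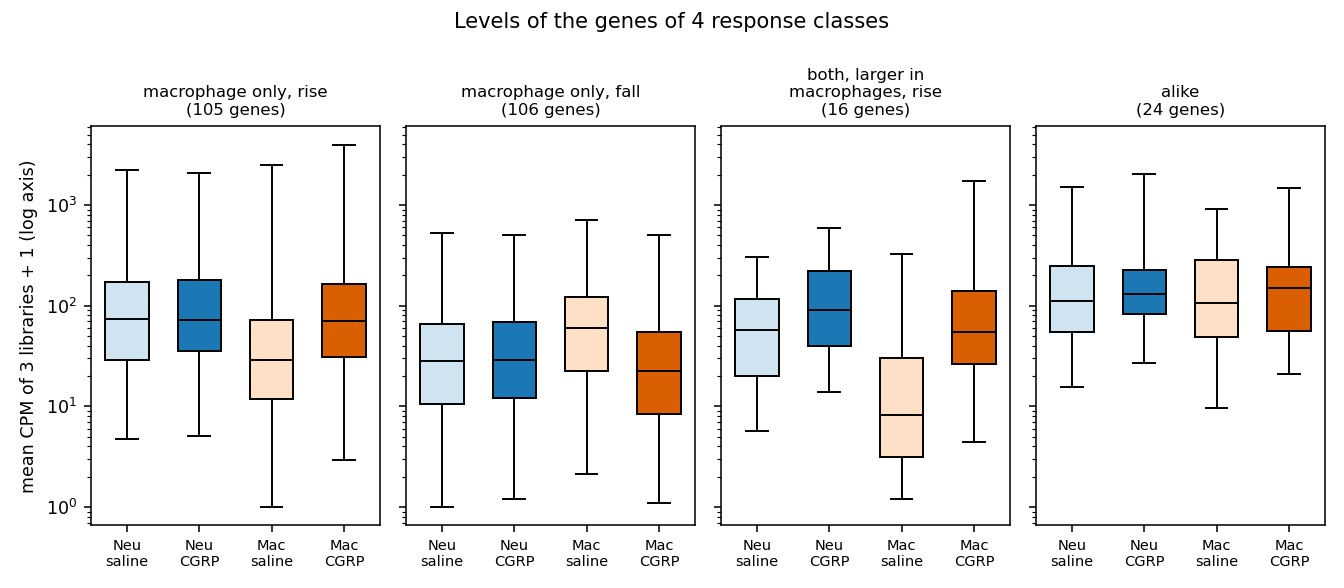
Mean CPM of 3 libraries plus 1 (log axis) in each of the 4 groups for the genes of 4 classes, with boxes for the quartiles, lines for the medians and whiskers for the full range. Macrophage-only risers had median levels of 28.2 CPM with saline and 69.2 CPM with CGRP in macrophages, beside 72.4 CPM in saline neutrophils.

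Across all 252 differing genes, the 2 cell types lay nearer together with CGRP than with saline for 164 (65.1%), against 53.5% of all genes tested. In 62 of the 252 the order of the cell types switched, against 1145 of all 10694, and in 5 of the 62 the levels were over 2-fold apart both before and after. The saline libraries are part of both the effect and the saline level, so this relation is a description. The saline level in the other cell type shares no library with the effect. The 481 genes higher in macrophages had a median of 40.2 CPM in saline neutrophils and 24.1 CPM in saline macrophages. The 569 lower ones had 24.7 CPM in saline neutrophils and 43.8 CPM in saline macrophages, and all genes tested had 20.4 and 18.2 CPM.

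By the ratio of saline levels, genes more than 4-fold higher in neutrophils had 76 macrophage calls upward and 39 downward. Genes more than 4-fold higher in macrophages had 39 upward and 148 downward, and those within 2-fold had 231 and 225. When the mean of the saline and CGRP levels was used for the ratio, an alternative added after seeing the data, the counts were 46 upward and 55 downward for the neutrophil-high genes. For the macrophage-high genes they were 50 upward and 107 downward. So the lean toward falls among macrophage-high genes was present by both measures, and the lean toward rises among genes over 4-fold higher in neutrophils was seen only with the saline level. Genes 2- to 4-fold higher in neutrophils leaned upward by both, with 96 against 46 and 84 against 57.

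**Figure D4:**
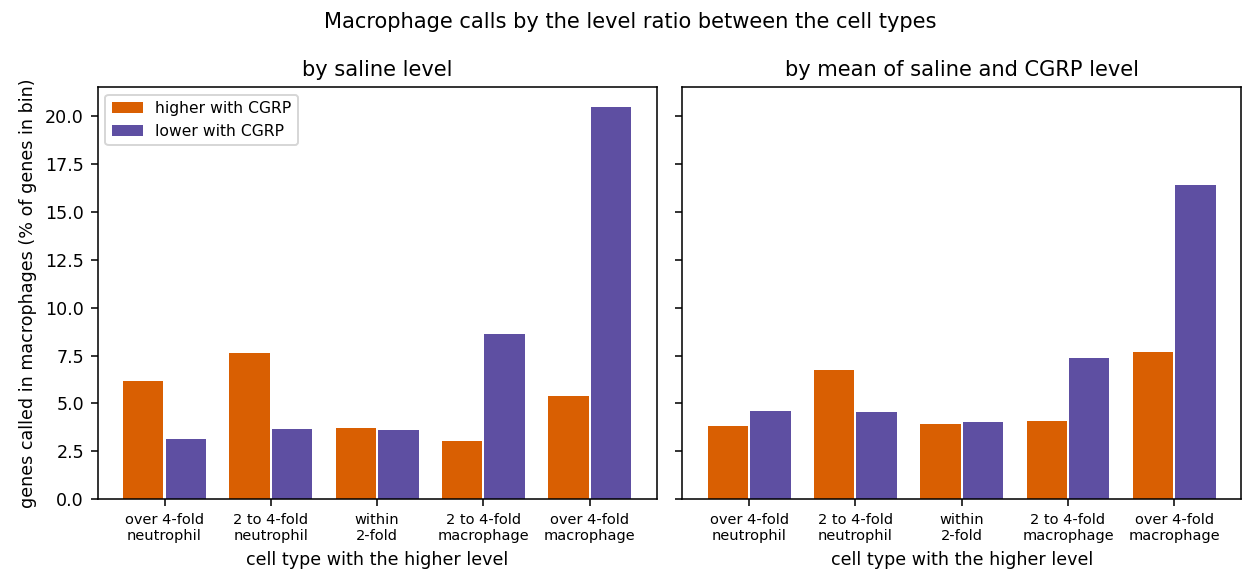
Share of the genes in each bin (percent) that were called higher (orange) or lower (purple) with CGRP in macrophages, with bins by the ratio of levels between the cell types from saline alone (left) and from the mean of saline and CGRP (right). Among genes over 4-fold higher in macrophages the falls outnumbered the rises in both panels, 148 to 39 and 107 to 50.

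The share of genes called in neutrophils was highest where neutrophils had the higher saline level. They were 55 of 1232 genes (4.46%) over 4-fold higher in neutrophils, 49 of 6199 (0.790%) within 2-fold and 7 of 723 (0.968%) over 4-fold higher in macrophages. Macrophage calls were 115 (9.33%), 456 (7.36%) and 187 (25.9%) in the same bins. The precision differed too. In the neutrophil-high bin the median standard error was 0.19 in neutrophils and 0.59 in macrophages, and in the macrophage-high bin it was 0.46 and 0.20. Of the 252 differing genes, 7 had fewer than 3 counts in every saline macrophage library and 2 in every saline neutrophil library. One gene with no saline count was *Tlr5*, the flagellin receptor, with 0 counts in saline macrophages and 18 in CGRP macrophages, at least 7.08-fold higher when 3 counts over the group are taken as the floor. This bound covers counting error only.

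Of the 2 parts of the receptor, *Ramp1* fell in neutrophils and *Calcrl* fell in macrophages, and neither effect was shown to differ between the cell types. *Ramp1* was at 249, 277 and 263 CPM with saline and 203, 186 and 179 CPM with CGRP in neutrophils and 106, 133 and 109 CPM with saline and 123, 106 and 95.6 CPM with CGRP in macrophages. Its neutrophil effect was -0.47 ± 0.11 (SE, adjusted p = 0.037), its macrophage effect -0.09 ± 0.13 (SE, adjusted p = 0.75), and the difference 0.38 ± 0.17 (SE, adjusted p = 0.32). *Calcrl* was at 19.5, 21.9 and 12.6 CPM with saline and 5.33, 5.91 and 4.02 CPM with CGRP in macrophages and 30.4, 25.8 and 34.6 CPM with saline and 23.4, 18.5 and 14.5 CPM with CGRP in neutrophils. The effects were -1.75 ± 0.33 (SE, adjusted p = 9.6e-04) and -0.67 ± 0.21 (SE, adjusted p = 0.17), and the difference was -1.09 ± 0.39 (SE, adjusted p = 0.19). *Ramp3*, which with the same receptor forms a receptor for adrenomedullin and was added after its values were seen, was at 1.9, 1.53 and 1.8 CPM with saline and 11.1, 9.97 and 11 CPM with CGRP in neutrophils. It was at 1.43, 1.8 and 0.72 CPM with saline and 26.6, 25.1 and 25.2 CPM with CGRP in macrophages, and it rose in both (2.51 ± 0.37, adjusted p = 3.2e-04 and 4.18 ± 0.38, adjusted p = 4.1e-08). Its difference of 1.67 ± 0.53 (SE, adjusted p = 0.11) did not pass. The neutrophil call of *Ramp1* was lost on leaving out single libraries for *Ramp1* (without neutrophil saline 1, 2 or 3, neutrophil CGRP 1, 2 or 3, macrophage saline 1, macrophage CGRP 2, highest adjusted p = 0.23). It was also lost with edgeR, with library totals and with counts thinned to the smallest library. Of 24 tested genes of the receptor and cAMP pathway, 5 rose and 1 fell in macrophages, 3 rose and 1 fell in neutrophils, and 2 differed (*Pde4b* and *Pde3b*). The median log2 fold change of this list was 0.17 in macrophages and 0.02 in neutrophils. *Prkar1a*, a regulatory subunit of protein kinase A, was alike, with 0.62 ± 0.09 and 0.39 ± 0.10.

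Early genes known to be induced by cAMP had the largest share of differing members among 21 lists. Of 25 tested, 12 rose and 5 fell in macrophages, 2 rose and 1 fell in neutrophils, and 10 differed (40.0%). Over all genes tested, 9.82% were called in macrophages, 1.28% in neutrophils and 2.36% for the difference, and the counts of each list stand against these shares. Their median log2 fold change was 0.64 in macrophages and 0.18 in neutrophils, against 0.01 and -0.01 for all genes tested. Besides *Crem*, *Btg2* and *Nr4a2*, the differing genes with a higher change in macrophages were *Fosl2* (1.81 ± 0.19 against 0.15 ± 0.15), *Ier3*, *Rgs2* and *Junb*. *Atf3*, *Egr2* and *Klf6* fell in macrophages. The neutrophil calls were *Nr4a2* and *Fos*, which rose, and *Klf4*, which fell (-0.78 ± 0.16, adjusted p = 0.0078). *Klf4* is also one of the 7 monocyte markers, of which 5 were lower without overlap in CGRP neutrophils.

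Most cell cycle genes called in macrophages fell. Of 38 tested, 18 fell and 2 rose in macrophages. None passed in neutrophils by limma-voom, where 4 had an unadjusted p under 0.05, and edgeR called 0 and DESeq2 0. Of all 10694 genes tested, 1.28% passed in neutrophils and 986 had such an unadjusted p. The neutrophil counts of this list are near those shares. The median log2 fold change was -0.67 in macrophages and -0.06 in neutrophils. The 2 that rose were the cyclin-dependent kinase inhibitors *Cdkn1a* (0.94 ± 0.11, adjusted p = 3.1e-06) and *Cdkn1b* (1.14 ± 0.21, adjusted p = 7.9e-04), which slow the cycle. The difference passed for 5, all lower in macrophages. *Ccnd1* (cyclin D1) was at 86.1, 67.7 and 66.5 CPM with saline and 16.3, 14.8 and 18.1 CPM with CGRP in macrophages and under 10 CPM in every neutrophil library (difference -2.40 ± 0.38, adjusted p = 6.5e-04). *Ccna2* (cyclin A2) was at 21.2, 18.9 and 18 CPM with saline and 9.09, 6.28 and 6.54 CPM with CGRP in macrophages. Saline neutrophils held more of it, with 119.5, 114 and 115 CPM with saline and 123, 106 and 109.6 CPM with CGRP. *Ccne2* behaved likewise (-1.59 ± 0.34 against 0.02 ± 0.14), and its difference was lost on leaving out single libraries for *Ccne2* (without macrophage saline 1 or 2, macrophage CGRP 2 or 3, highest adjusted p = 0.12). *Pcna* and *Rrm2* were the others. *Ccnd1*, *Ccna2* and *Ccne2* overlap other genes on the opposite strand.

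Chemokine ligands moved in both directions in macrophages. Of 18 tested, 6 rose and 4 fell in macrophages and 5 differed, where the median log2 change was 0.32 in macrophages and 0.08 in neutrophils. The neutrophil effect passed for 0 by limma-voom, 1 had an unadjusted p under 0.05, and edgeR called 0 and DESeq2 0. *Ccl2*, which attracts monocytes, was at 43.9, 56.6 and 48.5 CPM with saline and 11.6, 14 and 9.56 CPM with CGRP in macrophages. In neutrophils it overlapped at 75.9, 74.6 and 81.1 CPM with saline and 80.0, 67.2 and 97.8 CPM with CGRP, and the difference was -2.10 ± 0.26 (SE, adjusted p = 2.9e-05). *Ccl7* changed by -2.13 ± 0.30 in macrophages against -0.07 ± 0.13 in neutrophils, *Ccl4* changed by -1.87 ± 0.19 against 0.15 ± 0.20, and *Ccl3* was the other that fell. *Ccl6* rose in macrophages (0.69 ± 0.14, adjusted p = 0.002, difference adjusted p = 0.033). Of 18 chemoattractant receptors tested, 2 rose and 6 fell in macrophages and 1 fell in neutrophils, with a median of 0.18 in macrophages and -0.01 in neutrophils. *Cx3cr1*, the fractalkine receptor, differed. It was at 63.4, 56.9 and 71.9 CPM with saline and 27.9, 22.5 and 23.1 CPM with CGRP in macrophages and at 82.2, 86.6 and 99.8 CPM with saline and 69.3, 62.2 and 71.9 CPM with CGRP in neutrophils, with a difference of -0.96 ± 0.21 (SE, adjusted p = 0.011), which was lost on leaving out a library for *Cx3cr1* (without macrophage CGRP 2, highest adjusted p = 0.06). It overlaps *Wdr48* on the opposite strand.

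Among 19 Toll-like receptors and partners, 2 rose and 4 fell in macrophages and 1 rose in neutrophils, where the median log2 change was 0.11 in macrophages and 0.05 in neutrophils. *Tlr13*, a sensor of bacterial ribosomal RNA, was at 122, 105 and 132 CPM with saline and 43.9, 53.2 and 54.8 CPM with CGRP in macrophages. It was at 61, 69.4 and 62.7 CPM with saline and 69.6, 69.5 and 60.9 CPM with CGRP in neutrophils (difference -1.31 ± 0.19, adjusted p = 2.3e-04). Of 19 NF-kB pathway genes, 5 rose and 2 fell in macrophages and 1 rose in neutrophils (*Traf1*), with a median of 0.26 in macrophages and 0.15 in neutrophils. *Tnip3*, an inhibitor of the pathway, was at 116, 148 and 98.2 CPM with saline and 85.6, 59.5 and 46.3 CPM with CGRP in macrophages. It was at 6.96, 8.59 and 11.2 CPM with saline and 16.6, 15.8 and 15.8 CPM with CGRP in neutrophils, separate groups whose effect of 0.88 ± 0.33 (SE, adjusted p = 0.29) did not pass (difference -1.79 ± 0.37, adjusted p = 0.0069). Of 18 inflammatory cytokines and receptors, 4 rose and 1 fell in macrophages, and 2 rose in neutrophils (*Il1b* and its decoy receptor *Il1r2*), with a median of 0.19 in macrophages and 0.12 in neutrophils. *Tnfsf14*, the cytokine LIGHT, was at 2.58, 0.3 and 1.44 CPM with saline and 7.84, 8.13 and 5.53 CPM with CGRP in macrophages. It was at 147, 141 and 119 CPM with saline and 107, 114 and 118 CPM with CGRP in neutrophils, and the difference was 2.83 ± 0.54 (SE, adjusted p = 0.0034).

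Of 33 interferon-stimulated genes, 1 fell in macrophages (*Ifit3*) and 1 in neutrophils (*Cmpk2*), where the median log2 change was -0.30 in macrophages and -0.09 in neutrophils. The 3.03% called in macrophages lay below the 9.82% of all genes. The differing genes were *Ifit3* and *Usp18*, the latter an enzyme that removes ISG15. *Usp18* was at 1.26, 2.46 and 1.8 CPM with saline and 3.25, 4.11 and 6.58 CPM with CGRP in neutrophils and 12, 5.99 and 10.8 CPM with saline and 3.76, 4.43 and 5.03 CPM with CGRP in macrophages, where neither effect passed, with a difference of -2.25 ± 0.60 (SE, adjusted p = 0.048). It passed in 1 of the 12 fits, and that of *Ifit3* in 4. Of 14 genes of MHC class II and costimulation, 6 rose and 1 fell in macrophages, with a median of 0.39 in macrophages and 0.08 in neutrophils. In neutrophils limma-voom called 0, 1 had an unadjusted p under 0.05, and edgeR called 0 and DESeq2 0. For the difference it also called 0, 2 had an unadjusted p under 0.05, and edgeR called 0 and DESeq2 0. *H2-Aa*, an MHC class II chain, rose by 0.54 ± 0.11 (SE, adjusted p = 0.0016) in macrophages, against 0.13 ± 0.14 (SE, adjusted p = 0.88) in neutrophils. Of 20 alternative activation genes, 4 rose and 1 fell in macrophages, and *Tgm2* rose and *Klf4*, one of the monocyte markers above, fell in neutrophils, with a median of 0.36 in macrophages and -0.08 in neutrophils. For the difference limma-voom called 0, 7 had an unadjusted p under 0.05, and edgeR called 1 and DESeq2 1. Over all genes tested 1416 differed at an unadjusted p under 0.05.

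Of 25 secreted matrix and growth factors, 5 rose and 4 fell in macrophages and *Thbs1* rose in neutrophils, where the median log2 change was 0.09 in macrophages and 0.11 in neutrophils. *Mmp19*, *Plau* and *Vegfa* were the other differing genes. Of 27 efferocytosis genes, which serve the uptake of dying cells, 6 rose and 2 fell in macrophages, and 2 rose and 1 fell in neutrophils, with a median of 0.14 in macrophages and -0.01 in neutrophils. *Rarg*, a retinoic acid receptor, was at 9.75, 8.99 and 10.4 CPM with saline and 19.4, 25.1 and 18.6 CPM with CGRP in macrophages. It was at 31.9, 29.2 and 32.1 CPM with saline and 24.1, 19.4 and 20.2 CPM with CGRP in neutrophils, where the groups were separate in the other direction without passing (-0.55 ± 0.17, adjusted p = 0.16). Its difference was 1.66 ± 0.28 (SE, adjusted p = 0.0011). Of 30 survival and death genes, 5 rose and 4 fell in macrophages, and *Bcl2l1* and *Pmaip1* differed, with a median of 0.05 in macrophages and 0.01 in neutrophils. None passed in neutrophils by limma-voom, where 6 had an unadjusted p under 0.05, and edgeR called 0 and DESeq2 0. *Pmaip1* encodes the pro-apoptotic protein NOXA, and it rose by 0.89 ± 0.27 (SE, adjusted p = 0.032) in macrophages against -0.57 ± 0.25 in neutrophils. The difference passed in 3 of the 12 fits.

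Of 23 C/EBP, STAT and SOCS genes, 6 rose in macrophages, where the median log2 change was 0.27 in macrophages and -0.07 in neutrophils. The neutrophil effect passed for 0 by limma-voom, 3 had an unadjusted p under 0.05, and edgeR called 0 and DESeq2 0. *Stat4* was at 0, 0.599 and 1.44 CPM with saline and 8.78, 10.7 and 4.53 CPM with CGRP in macrophages and 25.9, 31 and 31.7 CPM with saline and 47.5, 49 and 38.6 CPM with CGRP in neutrophils, with a difference of 3.27 ± 0.70 (SE, adjusted p = 0.0096) that was lost on leaving out a library for *Stat4* (without macrophage saline 1, highest adjusted p = 0.1). *Stat3* rose by 0.88 ± 0.14 (SE, adjusted p = 8.6e-05) in macrophages. The differences of *Stat3* and *Cebpd* each passed in 2 of the 12 fits. *Stat3* overlaps *Stat5a* and *Cebpd* overlaps *Spidr* on the opposite strand. Of 23 cholesterol synthesis genes, 4 fell in macrophages, with a median of -0.27 in macrophages and 0.11 in neutrophils. In neutrophils limma-voom called 0, 1 had an unadjusted p under 0.05, and edgeR called 0 and DESeq2 0. *Sqle* (squalene epoxidase, difference -1.17 ± 0.29, adjusted p = 0.027) and *Sc5d* (sterol C5 desaturase, difference -1.10 ± 0.22, adjusted p = 0.0056) differed, the former in 6 of the 12 fits. Of 27 lysosome and proton pump genes, 2 rose and 2 fell in macrophages, with a median of 0.07 in macrophages and 0.01 in neutrophils. None passed in neutrophils by limma-voom, where 5 had an unadjusted p under 0.05, and edgeR called 0 and DESeq2 1. *Atp6v1b2*, a subunit of the proton pump, differed. The shares called in macrophages (14.8%) and for the difference (3.70%) were near those of all genes (9.82% and 2.36%). *Atp6v1b2* was at 624, 568 and 544 CPM with saline and 281, 281 and 284 CPM with CGRP in macrophages and at 256, 239 and 225 CPM with saline and 210.0, 199 and 234 CPM with CGRP in neutrophils.

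Of 23 glycolysis and lactate export genes, 1 rose in macrophages (*Slc16a3*) and 2 in neutrophils (*Slc16a3* and *Ldha*), where the median log2 change was 0.05 in macrophages and 0.01 in neutrophils. The 4.35% called in macrophages lay below the 9.82% of all genes. Of 20 integrins and adhesion genes, 4 rose and 1 fell in macrophages and 1 fell in neutrophils, with a median of 0.06 in macrophages and -0.01 in neutrophils. *Itga1* and *Pecam1* differed, both under 3 CPM in every saline macrophage library. The difference of *Itga1* was lost without macrophage saline 1 (adjusted p = 0.059), and that of *Pecam1* passed in 3 of the 12 fits. *Itgb3*, the integrin beta-3 chain and a platelet marker, was at 33.8, 34.1 and 25.9 CPM with saline and 11.1, 7.92 and 4.82 CPM with CGRP in neutrophils. Its effect was -1.97 ± 0.29 (SE, adjusted p = 3.2e-04), and the 7 platelet markers that include it summed to 193 to 203 CPM with saline and 135 to 204 CPM with CGRP, which overlapped. Of 23 neutrophil granule genes, 3 rose in macrophages and 1 fell in neutrophils (*Cybb*), with a median of 0.37 in macrophages and -0.18 in neutrophils. *Slpi*, a protease inhibitor, was at 16.1, 15.3 and 20.5 CPM with saline and 27.9, 28.8 and 38.2 CPM with CGRP in macrophages against 1669, 1763 and 1429 CPM with saline and 1581, 1279 and 1265 CPM with CGRP in neutrophils. Its difference of 1.09 ± 0.24 (SE, adjusted p = 0.012) was lost on leaving out single libraries for *Slpi* (without macrophage saline 1 or 2, macrophage CGRP 3, highest adjusted p = 0.063). The neutrophil marker sum was also higher in CGRP macrophages, and its part in this difference was not tested. Of 43 ribosomal protein genes limma-voom called 0 in either cell type and 0 for the difference, as did edgeR and DESeq2, and 3 had an unadjusted p under 0.05, all in macrophages. Their median was 0.11 in macrophages and -0.01 in neutrophils.

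**Figure D5:**
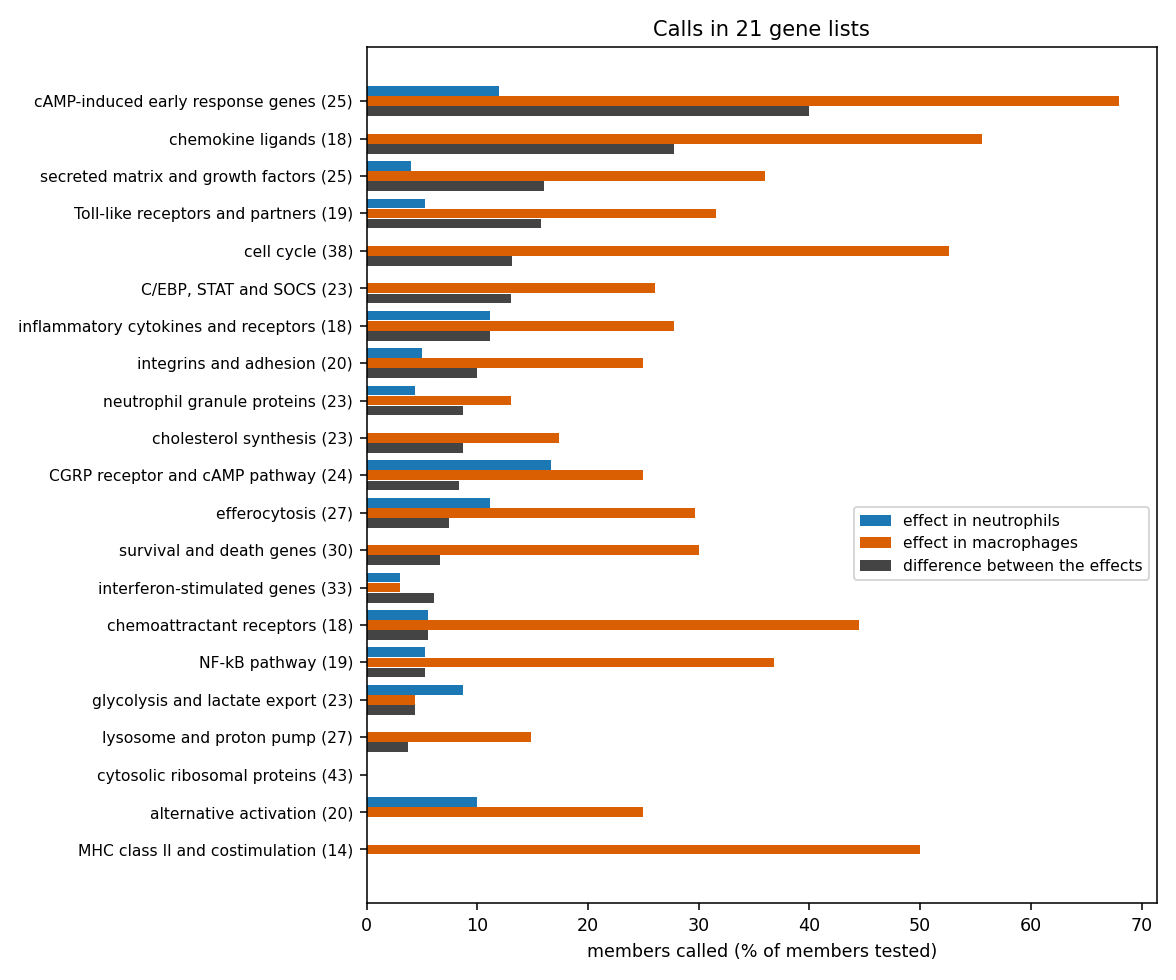
Members called (percent of members tested, whose number is in brackets) in 21 gene lists, with blue bars for the effect in neutrophils, orange for the effect in macrophages and dark grey for the difference between the effects. The cAMP-induced early response genes had the most differing members, 10 of 25, and macrophage bars were longer than neutrophil bars in all lists except those of interferon-stimulated, ribosomal, and glycolysis and lactate export genes. Over all genes tested, 9.82% were called in macrophages, 1.28% in neutrophils and 2.36% for the difference, so longer macrophage bars are not particular to these lists.

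The study names 16 genes for its RNA-seq, which were chosen on these samples and so are not independent evidence of direction. Of these, 12 rose and 3 fell in macrophages, and 3 rose and 2 fell in neutrophils. The difference passed for *Thbs1*, *Cd14*, *Rarg*, *Vegfa*, *Cx3cr1* and *Stat3*. *Ccr2* was alike. *Tgm2*, a transglutaminase, was at 56.3, 59.5 and 45.8 CPM with saline and 162, 145 and 139 CPM with CGRP in neutrophils and 73.7, 77.3 and 87.7 CPM with saline and 299, 421 and 374 CPM with CGRP in macrophages. It rose in both, by 1.47 ± 0.15 and 2.18 ± 0.13, and the difference just missed the threshold (0.72 ± 0.20, adjusted p = 0.057). For others, among them *Cebpb*, *S1pr1*, *Sgk1*, *Clu*, *Tgfb3* and *Itgav*, only the macrophage effect passed and the difference did not. The macrophage calls of *Clu* and *Tgfb3* were each lost in 3 of the 12 fits without a library (highest adjusted p = 0.070 and 0.12). *Tgfb3* overlaps *Ttll5* and *Cebpb* overlaps *Tmem189* on the opposite strand, so both values are uncertain. *Sgk1*, a kinase, for example rose by 0.74 ± 0.13 in macrophages against 0.30 ± 0.13 in neutrophils, and *Itgav*, an integrin chain, changed by -1.12 ± 0.25 against -0.07 ± 0.37.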

How the data were processed

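The 12 libraries were dT-primed 3′ RNA-seq libraries with unique molecular identifiers (UMIs). The authors deposited 2 tables of UMI counts per gene, 1 per cell type, made with STAR on GRCm38 and featureCounts. The annotation release and strand setting are not given in the sources used here. UMIs limit PCR duplicates, so deposited counts approximate molecules, and 3′ priming makes them largely independent of gene length.

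The tables were joined on gene ID. Of 52636 IDs, 52489 were named from GENCODE M21. Unused sample columns numbered 0. Genes were filtered with filterByExpr, leaving 10694, scaled by TMM and fitted with limma-voom (limma 3.58.1, edgeR 4.0.16, R 4.3.3) with 4 group means over 12 libraries. Effects are CGRP minus saline and their difference is macrophage minus neutrophil. Adjusted p-values are Benjamini-Hochberg over all genes tested within each of the 3 comparisons, with a threshold of 0.05. The count per library was 2002559 to 3631989, and the median standard errors given with the calls show the resulting precision. Levels are TMM-scaled CPM.

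Named genes were called genes with at least 10 CPM in the higher group and no overlap of saline and CGRP libraries: the 5 largest rises and falls of each one-cell class, the 5 largest differences of genes changed in both, the 5 clearest alike genes in each direction, all opposite genes, up to 3 differing members a list, the receptor genes and the genes the study names, the last 3 whatever their level. For the one-cell classes the higher group was that of the cell type with the effect. The members and lists were chosen with earlier results of these data known. Alternatives were edgeR quasi-likelihood and DESeq2 1.42.0 tests, other scalings, count filters, quality weights, own fits, replicate blocks, thinned counts, a fold or margin of 1.5, and leaving out each library. Some items are not reported here. The scripts were tested on simulated data.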

Additional observations from a re-analysis of the deposited data

Results flagged for a closer look

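A difference of the CGRP effect between the cell types, tested as an interaction, was found for 252 genes. The sizes for the named genes are macrophage minus neutrophil log2 fold changes, and all have an adjusted p under 0.05 in limma-voom. Among genes that rose in macrophages only, it was 3.77 for *Tlr5*, 3.27 for *Stat4*, 3.06 for *Pecam1*, 2.91 for *Itga1*, 2.88 for *Crem*, 2.83 for *Tnfsf14*, 2.43 for *Mxi1*, 2.39 for *Mmp19* and 2.33 for *Pde3b*. It was 2.24 for *Vegfa*, 1.66 for *Rarg*, 1.47 for *Pmaip1*, 1.19 for *Cebpd*, 1.16 for *Btg2*, 1.09 for *Slpi* and 0.72 for *Stat3*. Among genes that fell in macrophages only, it was -4.003 for *P2ry1*, -3.93 for *Kcne3*, -3.61 for *Kcnj2*, -3.39 for *Plau*, -2.49 for *Ifit3*, -2.40 for *Ccnd1*, -2.35 for *Atf3*, -2.35 for *Bcl2l1* and -2.11 for *Egr2*. It was -2.10 for *Ccl2*, -2.05 for *Ccl7*, -2.02 for *Ccl4*, -1.79 for *Tnip3*, -1.61 for *Ccne2*, -1.33 for *Ccna2*, -1.31 for *Tlr13*, -1.17 for *Sqle* and -1.10 for *Sc5d*. It was further -0.96 for *Cx3cr1* and -0.87 for *Atp6v1b2*. Among genes changed in both but more in macrophages, it was 3.00 for *Rnf125*, 2.92 for *F5*, 2.86 for *Pde4b*, 2.75 for *Nr4a2*, 2.67 for *Gpr171*, 2.66 for *Il1b*, 2.64 for *Thbs1*, 1.60 for *Cd14* and 1.15 for *Slc16a3*. Among neutrophil-only genes, it was -4.42 for *Cables1*, -3.35 for *Ldhc*, -1.40 for *Rasa2*, -1.09 for *Trib1*, -0.89 for *Lilr4b*, -0.80 for *Tes* and 0.62 for *Cybb*. For genes changed in opposite directions, it was -1.77 for *Gadd45g*, 1.71 for *Arhgef3* and 1.19 for *Svil*. For the remaining genes, it was -2.25 for *Usp18*, -1.40 for *Cd200r1* and -0.67 for *Clec4d*. For *Ldhc* both macrophage groups held 1 count, and for *Tlr5* the saline macrophages held 0 counts, so the sizes of these differences depend on the prior count of the fit. *Trib1*, *Tes*, *Ifit3*, *Usp18*, *Pmaip1*, *Sqle*, *Stat3* and *Cebpd* each lost the difference in 6 or more of the 12 fits without a library, as did *Gpr171*, *Pecam1*, *Cybb*, *Ldhc* and *Clec4d*. Of the 58 named genes with a difference, 35 passed in all 12 of those fits.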

How the results depend on the processing

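Across the alternatives no named gene reversed its direction, and 40 of the 58 named genes with a difference passed in every alternative that gave a value besides those leaving out a library. The count of 252 differing genes was 520 with sample quality weights, and leaving out single libraries gave 149 (without saline macrophage library 1) to 328. Calls in neutrophils (137) became 87 with at least 10 counts in every library, 254 with quality weights and 248 with an own fit for each cell type, and 71 to 159 without single libraries. Calls in macrophages (1050) became 698 with their own fit, and 682 to 1210 without single libraries. Macrophage-only genes (211) became 421 with quality weights and ranged from 128 to 277 without single libraries. Neutrophil-only genes (7) became 4 with at least 10 counts, 22 with quality weights and 11 with own fits, with a range of 2 to 9. Genes changed in both but more in macrophages (17) became 10, 30 and 27 under those settings, with a range of 10 to 20. Opposite genes (3) became 1 without a filter on low counts and 8 with quality weights, with a range of 1 to 3. Alike genes (24) became 45 with quality weights, 13 with a fold over 1.5 required as well and 11 with a margin of log2 of 1.5, with a range of 15 to 34. The causes were not tested. edgeR and DESeq2 called 290 and 305 differing genes, which held 242 and 244 of the 252. edgeR gives no interval, so the alike class has no value with it.

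The labels do not say that replicate numbers mark shared mice. Same-numbered libraries of a cell type had a mean correlation of 0.0298 (-0.161 to 0.209 over 6 pairs), against -0.0150 for different numbers. Across cell types the means were 0.0666 (12 pairs, -0.0611 to 0.183) and -0.0332 (24 pairs). Since not every pair exceeded 0.1, and 5 of 12 libraries correlated best with their own number, the numbers were not taken as a pairing. With the replicate block within each cell type, 337 genes differed, 161 were called in neutrophils and 1261 in macrophages, neutrophil-only genes were 11, and the difference of *Kcne3* was lost (adjusted p = 0.052). With the block over all 12 libraries, 406 differed, with 335 macrophage-only, 12 neutrophil-only, 6 opposite and 39 alike genes.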

Other observations

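Further genes, chosen after their values were seen, fell outside the naming rule. *Entpd1* (CD39), an enzyme that splits extracellular ATP and ADP, had alike effects of 0.55 ± 0.13 in neutrophils, from a mean of 103 to 152 CPM, and 0.57 ± 0.13 in macrophages, from 112 to 168 CPM. *Nt5e* (CD73), which turns AMP into adenosine, rose by 0.92 ± 0.16 in neutrophils, from 23.2 to 43.3 CPM, and by 3.46 ± 0.60 in macrophages, from 0.196 to 3.39 CPM (difference adjusted p = 0.025). At the saline level of *Nt5e* in macrophages a few counts set the fold change. *Pkib*, an inhibitor of protein kinase A, fell in both (-1.43 ± 0.30 and -1.87 ± 0.13, difference adjusted p = 0.65). *Cytip*, a cytohesin-binding protein, rose by 0.71 ± 0.15 in neutrophils and 3.35 ± 0.18 in macrophages (difference adjusted p = 4.1e-07).

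Among alike genes, *Srgn*, the granule proteoglycan serglycin, rose by 0.64 ± 0.11 and 0.70 ± 0.12. *Slc7a11*, the cystine transporter, rose by 1.00 ± 0.15 and 1.17 ± 0.22, and *Hpgd*, which degrades prostaglandins, changed by -0.74 ± 0.19 and -1.05 ± 0.21. *Lpl*, lipoprotein lipase, fell by more in the estimate for neutrophils (-1.50 ± 0.21, from a mean of 56.7 to 20.1 CPM) than in that for macrophages (-0.66 ± 0.11, from 4369 to 2779 CPM), and the difference did not pass (adjusted p = 0.063). All are limma-voom values from the fit of 12 libraries.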
